A study of Schizosaccharomyces pombe with 6 samples.

Results

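The right subtelomere of fission yeast chromosome II is the stretch of genes that ends at the telomere of its right arm, and it was followed here through 27 features of 7268 counted in all. The members were taken by identifier: all features whose systematic name starts with SPBC8E4, SPBP4G3, SPBPB2B2 or SPBCPT2R1, 34 in number, without 7 that the rule names and leaves out (pho1, pho84, ecl3, tlh2, SPBPB2B2.06c, SPBPB2B2.19c and SPBCPT2R1.06c). All 7 left-out features were lower in cells without Cpn1, and 4 of them fell further than any member, so counts over the members have to be read in that light. Of the 27 members, 23 are protein-coding genes, 3 are pseudogenes and 1 is a long non-coding RNA in the ASM294v3 annotation.

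RNA was sequenced from haploid Schizosaccharomyces pombe cells of 2 strains. Wild-type cells were h+ with the alleles ade6-210, leu1-32 and ura4-D18 and an ade6+ reporter at otr1R in the pericentromere, and cpn1∆ cells carried the same alleles and reporter together with cpn1::HygMX6, a replacement of the gene for the Caprin protein Cpn1 by a hygromycin-resistance cassette. Both were grown to log phase in rich medium (YES) at 32 °C, and 3 biological replicates of each were processed. Each genotype is represented by 1 strain, so that any other difference between the strains cannot be told apart from the deletion. The question of the comparison was whether loss of Cpn1 changes the transcriptome. Cpn1 is a predicted RNA-binding protein studied for its part in the establishment of heterochromatin.

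Subtelomeres are the gene-poor ends of chromosomes, where heterochromatin marked by methylation of histone H3 spreads inward from the telomere and keeps many genes at a low level. They hold repeated sequence, duplicated gene families and genes for the use of particular nutrients, which are often switched on only when the medium requires it. In this region they include the galactose cluster gal7, gal10 and gal1, whose products turn galactose into glucose 1-phosphate by the Leloir pathway.

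Counts assigned to features came to 26461217 to 32916622 per library, and the deleted gene cpn1 gave 7543 to 9034 counts in the wild-type and 169 to 194 in the cpn1∆ libraries. Levels are given as CPM, counts scaled to a common library total by TMM, and log2FC is the log2 fold change of cpn1∆ against wild-type, so that negative values are lower in cpn1∆ cells, and its error is the standard error (SE) of the fit. Of the members, 21 had enough counts to be tested (filterByExpr with a minimum count of 10) and 6 did not. Features were called at an adjusted p, or false discovery rate (FDR), under 0.05 over all 5812 features tested. In RNA from whole cultures, fewer cells that express a gene and less RNA per cell cannot be told apart.

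A few enzyme genes of the inner and middle parts carried most of the RNA of the members. Per kb of feature length, SPBC8E4.04, an aldo/keto reductase gene, was the highest member at 136 CPM per kb in wild-type cells. The agmatinase gene SPBC8E4.03 stood at 77.8 CPM per kb and pan5 at 49.7 CPM per kb. These were followed at a distance by gal7 at 15.1 and the amino acid permease gene nrg1 at 14.3 CPM per kb. All others were at or under 8.79 CPM per kb, the level of the non-coding RNA prt2. Lengths are those of whole features, and 54.5% of prt2, for example, overlaps pho84 on the same strand. Levels per kb of features that overlap others are therefore uncertain. Of the 21 tested members, 8 were above 10 CPM and 6 under 1 CPM in wild-type cells. Summed over the 27 members, the region gave 493, 491 and 495 CPM in the wild-type and 488, 461 and 463 CPM in the cpn1∆ libraries. The sums of all 3 cpn1∆ libraries were below those of the wild-type libraries, by a small margin. With the 7 left-out features, of which pho1 and pho84 hold most of the RNA, the sum was 2925 ± 86.3 CPM in wild-type cells against 1588 ± 29.8 in the deletion strain (SD, n = 3).

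**Figure D1:**
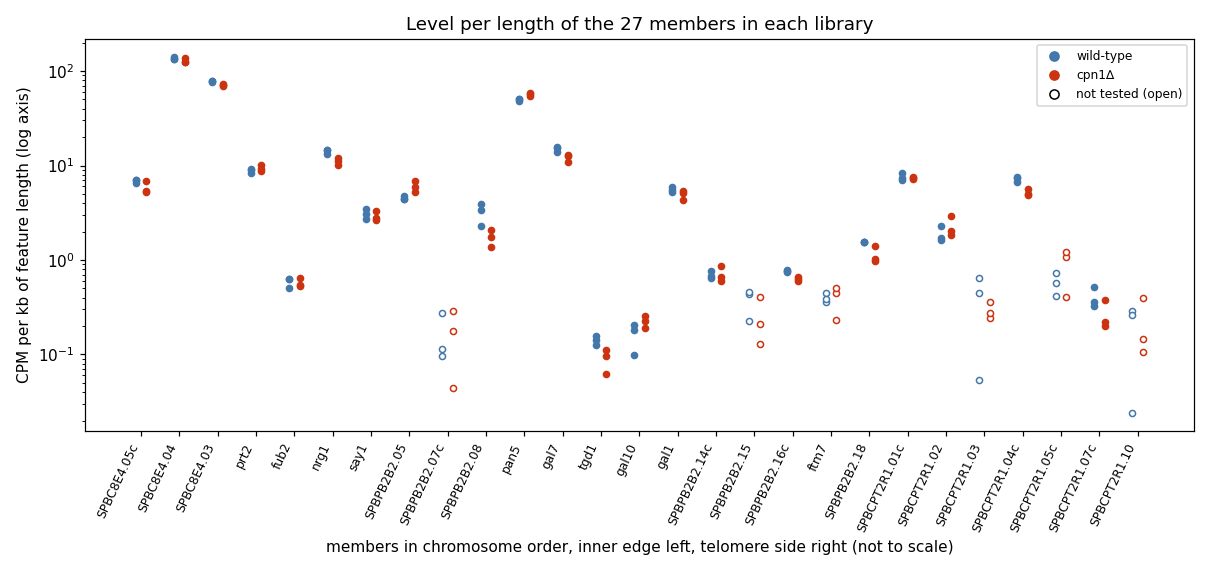
CPM per kb of feature length (log axis) of the 27 members in each of the 3 wild-type (blue) and 3 cpn1∆ (red) libraries, in chromosome order from the inner edge to the telomere side. Filled points are tested members and open points the 6 with too few counts, and SPBC8E4.04, SPBC8E4.03 and pan5 stand above all others.

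Of the 21 tested members, 5 were lower and 1 was higher in cpn1∆ cells. Over all 5812 features tested, 10.2% were lower, 8.36% higher and 18.6% either by the same rule. The lower members were SPBC8E4.03, nrg1, SPBPB2B2.08, gal7 and SPBCPT2R1.04c, and the higher one was pan5. The log2FC was below 0 for 16 of the 21, against 47.7% of all features tested, and the median was -0.13 against 0.01. No member passed the study's fold threshold, a log2FC above 1 or below -1, which 0.31% of all features passed in each direction, with the largest absolute log2FC at 0.90. The count of 0 in each direction was the same with edgeR at an unadjusted p under 0.05 and with DESeq2 and limma voom. Taking in the 7 left-out features, 12 of 28 tested features were lower, 4 of them by more than 2-fold, and the median was -0.30. These 4, pho1, ecl3, SPBPB2B2.06c and SPBCPT2R1.06c, are listed by the study as lower past its fold threshold. The count of 0 lower members past that threshold therefore follows largely from the rule. The log2FC of the 7 lay between -2.83 and -0.62.

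**Figure D2:**
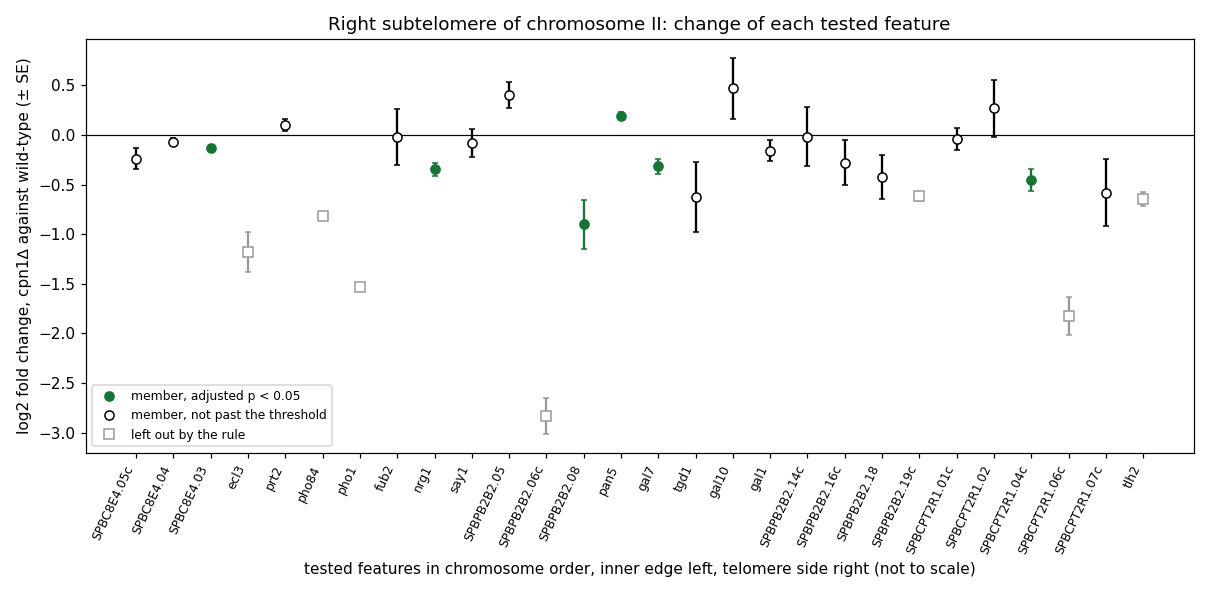
Log2 fold change of cpn1∆ against wild-type (vertical axis, error bars are standard errors) for the 28 tested features of the region in chromosome order. Filled green circles are members past an adjusted p of 0.05, open circles the other members and grey squares the 7 features left out by the rule, all of which lie at or below -0.62.

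The called decreases lay in the inner, the middle and the outer part of the region, with 1 each in the inner and the outer part. The inner one was SPBC8E4.03, whose call was lost with scaling by total counts only. The outer one was SPBCPT2R1.04c, whose counts ran closely beside those of SPAC750.06c at the right end of chromosome I. Whether these genes draw on the same reads was not tested. By identifier group, 1 of 5 tested members of SPBC8E4 and SPBP4G3 at the inner side, 3 of 12 of SPBPB2B2 in the middle and 1 of 4 of SPBCPT2R1 next to the telomere were lower, with median log2FC of -0.07, -0.22 and -0.25. Among the 41 tested features of the adjoining 100 kb toward the centromere, 8 were lower (19.5%) and 5 higher (12.2%). The shares were 23.8% and 4.76% among the tested members and 10.2% and 8.36% over all features tested. The median log2FC of the adjoining features was -0.01. At the other ends of chromosomes I and II, the median within 100 kb was -0.32 (chromosome II left), -0.18 (chromosome I left) and -0.10 (chromosome I right). These 3 medians include all features of those ends, while the members here lack the 7 left out, and no difference between the ends was tested. The members were also taken by identifier and not by distance, so other counted features between them are not included. SPBC8E4.03, a called decrease, and the members inward of it lie beyond 100 kb from the end in ASM294v3.

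At the inner side lie enzymes of small-molecule metabolism. SPBC8E4.03 encodes agmatinase 2, and agmatinases split agmatine into putrescine and urea. It gave 121, 120 and 119 CPM in the wild-type and 113, 109 and 107 CPM in the cpn1∆ libraries. The groups did not overlap, although the decrease was the smallest among the called members, a log2FC of -0.13 ± 0.03 (SE, edgeR quasi-likelihood adjusted p = 0.0109). The call was lost with scaling by total counts only (adjusted p = 0.0654). In wild-type cells its strand partner SPNCRNA.1693, which covers 21.5% of its length on the opposite strand, gave 0.271 CPM. SPNCRNA.1693 is itself overlapped over 87.1% of its length by counted features on the opposite strand. How reads over such a stretch were counted is not given in the sources used here, so the level of SPNCRNA.1693 is uncertain. Of 5 agmatinase and arginase genes in the genome, 3 were lower and 0 higher, beside 10.2% and 8.36% over all features tested. The other 2 were the arginase gene aru1, with a log2FC of -0.19 ± 0.03 (SE), and the agmatinase gene SPAC11D3.09, with a log2FC of -0.41 ± 0.13 (SE). The call of SPAC11D3.09 was lost with DESeq2, with total counts only and without any 1 of the 6 libraries (adjusted p = 0.0554, 0.0564 and, with 1 library left out, 0.0653 to 0.111).

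The neighbours of SPBC8E4.03 on the inner side were not called. SPBC8E4.04, an aldo/keto reductase, was at 161 ± 5.79 CPM in wild-type cells against 153 ± 8.19 in the deletion strain (SD, n = 3), with overlapping libraries. The fumarate lyase gene SPBC8E4.05c, the innermost member, gave 10.5, 9.76 and 10.4 CPM in wild-type and 10.2, 8.01 and 7.90 CPM in cpn1∆ libraries, so that cpn1∆ replicate 1 alone lay within the wild-type range. Its log2FC was -0.24 ± 0.11 (SE, with an edgeR quasi-likelihood adjusted p = 0.152), and without cpn1∆ replicate 1 it was called, at -0.36 (adjusted p = 0.0431). Beyond it toward the centromere, cao2, listed as a copper amine oxidase-like gene, had a log2FC of -0.33 ± 0.20 (SE) and was not called.

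Between these genes and the SPBPB2B2 group lie the phosphate genes pho84 and pho1 that the rule leaves out, and the member prt2 (SPBC8E4.02c), a long non-coding RNA that represses pho84 when phosphate is plentiful. The prt2 feature gave 31.3, 28.8 and 30.4 CPM in the wild-type and 31.2, 30.3 and 35.1 CPM in the cpn1∆ libraries. The groups overlapped, and the log2FC was 0.10 ± 0.06 (SE, with an edgeR quasi-likelihood adjusted p = 0.317). Over the same libraries pho84 had a log2FC of -0.81 ± 0.04 (SE). In ASM294v3 54.5% of prt2 overlaps pho84 on the same strand, so that reads from the shared stretch cannot be told apart, and the extent of the counted feature in the annotation of the authors was not checked. Next to pho1, fub2, a gene of the PI31 proteasome regulator family, was expressed at 0.637 ± 0.0824 CPM in wild-type cells against 0.624 ± 0.0707 in the deletion strain (SD, n = 3). SPNCRNA.1695, on the other strand, covers 80.7% of fub2. How reads over that stretch were counted is not given in the sources used here, so the level of fub2 is uncertain.

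The amino acid permease gene nrg1 (SPBPB2B2.01) had the smallest adjusted p of the called decreases. It gave 31.6, 31.7 and 28.6 CPM in the wild-type and 26.1, 24.2 and 22.0 CPM in the cpn1∆ libraries. Every cpn1∆ library was below every wild-type library, and the level fell by 21.5% (log2FC -0.35 ± 0.07 SE, edgeR quasi-likelihood adjusted p = 0.00317). The call held without any 1 library (adjusted p = 0.00102 to 0.0159). Permeases of this kind carry amino acids across the plasma or vacuolar membrane. Of 21 amino acid permease and transporter genes found by their description, 7 were lower and 2 higher (10.2% and 8.36% over all features tested), with a median log2FC of -0.09 against 0.01. The largest changes on that list were a log2FC of 0.90 ± 0.14 (SE) for isp5 and of -0.37 ± 0.03 (SE) for aat1. nrg1 was thus second to aat1 among the decreases. Its neighbour say1, which encodes a sterol deacetylase, was not called, at 4.85 ± 0.578 CPM in wild-type cells against 4.57 ± 0.539 in the deletion strain (SD, n = 3).

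Further out lie a pair of neighbours with higher values in every cpn1∆ library. The class I glutamine amidotransferase gene SPBPB2B2.05 gave 4.76, 4.43 and 4.45 CPM in the wild-type and 6.89, 5.94 and 5.24 CPM in the cpn1∆ libraries. The groups did not overlap, but the test was narrowly missed, at a log2FC of 0.40 ± 0.13 (SE, edgeR quasi-likelihood adjusted p = 0.0519). It passed under 6 of the 12 alternatives that kept all libraries, and its adjusted p was 0.0313 to 0.19 with 1 library left out. The next counted feature inward is nam3 (SPNCRNA.1696), a long non-coding RNA on the other strand that does not overlap the gene, so that both are transcribed away from each other. It is no member and gave 9.44, 8.49 and 8.55 CPM in the wild-type and 12.3, 14.8 and 14.1 CPM in the cpn1∆ libraries. It was called, with a log2FC of 0.64 ± 0.10 (SE, edgeR quasi-likelihood adjusted p = 0.000428), also without any 1 library. The counts of SPNCRNA.1696 are fractional in part of the libraries. A further counted feature with the name nam3, SPNCRNA.532, gave 0 to 4 counts per library and was not tested. SPNCRNA.1696 was 1 of 6 non-coding RNAs between the members that could be tested, and the other 5 were not called. On the outer side of SPBPB2B2.05 lies SPBPB2B2.06c, a nucleotidase gene that the rule leaves out, with a log2FC of -2.83 ± 0.18 (SE), so that features of opposite direction lie side by side.

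SPBPB2B2.08, a gene for a conserved fungal protein without a described role, had the largest change of all members. It gave 1.59, 2.36 and 2.73 CPM in the wild-type and 1.22, 0.957 and 1.44 CPM in the cpn1∆ libraries, from 30 to 87 counts. The groups did not overlap, but wild-type replicate 1 lay close to the cpn1∆ libraries. The log2FC was -0.90 ± 0.24 (SE, edgeR quasi-likelihood adjusted p = 0.0193). The call rested on several libraries and was lost on leaving out replicate 2 or 3 of wild-type or replicate 1 or 2 of cpn1∆ (adjusted p between 0.0577 and 0.0881), with the log2FC between -1.07 and -0.73 over all 6 libraries left out in turn.

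The single called increase was next to it. pan5 (SPBPB2B2.09c) encodes 2-dehydropantoate 2-reductase, which makes pantoate for the synthesis of pantothenate and coenzyme A. It gave 74.4, 75.5 and 70.5 CPM in the wild-type and 83.8, 86.6 and 80.9 CPM in the cpn1∆ libraries. All cpn1∆ libraries were above all wild-type libraries (log2FC 0.19 ± 0.04 SE, edgeR quasi-likelihood adjusted p = 0.00398), and the call held under every alternative and without any 1 library (largest adjusted p = 0.0254). The other tested genes of this pathway on the list were not called: pan6, for pantoate-beta-alanine ligase, had a log2FC of 0.01 ± 0.03 (SE), ptk1, listed as a pantothenate kinase, of -0.01 ± 0.04 (SE) and ppc1, for phosphopantothenate-cysteine ligase, of -0.08 ± 0.05 (SE). The pantothenate transporter gene liz1 had 0 counts in all libraries and was not tested. Counted features on the opposite strand cover 100% of it. How reads over such a stretch were counted is not given in the sources used here, so the level of liz1 is unknown.

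**Figure D3:**
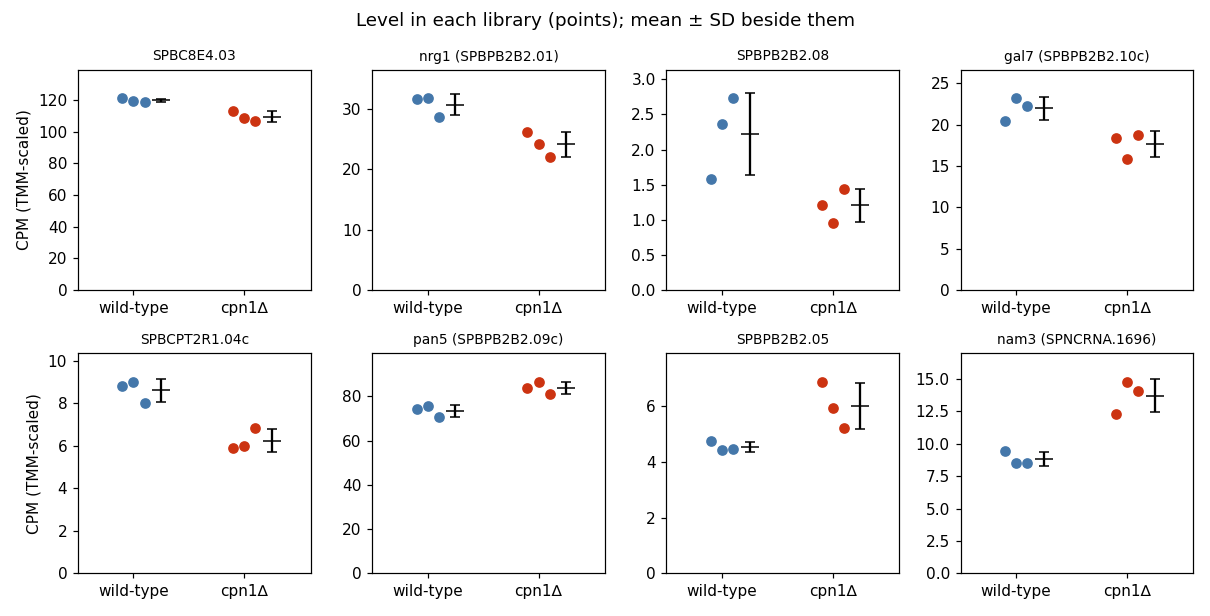
CPM (TMM-scaled) in each library for the 6 called members, for SPBPB2B2.05 and for the non-member nam3, with wild-type in blue, cpn1∆ in red and the mean ± SD (n = 3) beside the points. The groups do not overlap in any of the 8 panels, and pan5, SPBPB2B2.05 and nam3 are higher in cpn1∆ cells while the others are lower.

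The genes of the galactose cluster lie side by side and differed in level. gal7 (SPBPB2B2.10c), for galactose-1-phosphate uridylyltransferase, gave 20.5, 23.2 and 22.3 CPM in the wild-type and 18.4, 15.9 and 18.8 CPM in the cpn1∆ libraries. The level fell by 19.7% without overlap between the groups (log2FC -0.32 ± 0.08 SE, edgeR quasi-likelihood adjusted p = 0.012), and the call was lost without wild-type replicate 2 (adjusted p = 0.0539) or cpn1∆ replicate 2 (0.0575). The galactokinase gene gal1 (SPBPB2B2.13) was not called. It gave 11.6, 10.2 and 10.8 CPM in the wild-type and 10.6, 8.46 and 10.1 CPM in the cpn1∆ libraries. These overlapped, with a log2FC of -0.16 ± 0.10 (SE, edgeR quasi-likelihood adjusted p = 0.321). SPNCRNA.1697, on the other strand, covers 58.1% of gal1, while no counted feature overlaps gal7. How reads over that stretch were counted is not given in the sources used here, so the level of gal1 is uncertain. Whether gal7 and gal1 differ in their response was not tested.

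The epimerase gene gal10 (SPBPB2B2.12c) and the nucleotide-sugar dehydratase gene tgd1 (SPBPB2B2.11) lie on opposite strands of the same stretch, with 93.7% of gal10 and 98.8% of tgd1 covered by the other. They gave 11 to 26 and 6 to 15 counts per library, against 497 to 727 for gal7. gal10 was at 0.571 ± 0.195 CPM in wild-type cells against 0.79 ± 0.117 in the deletion strain and tgd1 at 0.471 ± 0.0568 and 0.299 ± 0.0815 CPM (SD, n = 3), and neither was called (adjusted p = 0.332 and 0.244 by edgeR quasi-likelihood). Reads over the shared stretch could not be assigned to 1 of them without strand, and the strand setting of the counting is not given in the sources used here, so both values are uncertain. Of the other genes of the Leloir pathway and of UDP-glucose supply, uge1, fyu1, ugp1 (SPCC794.10) and pgm1, none of the 4 was called by edgeR's quasi-likelihood test, with a median log2FC of 0.02, and 0 had an unadjusted p under 0.05 or were called by DESeq2 or limma voom.

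From SPBPB2B2.14c outward, every member carries fractional counts in at least 1 library. SPBPB2B2.07c, further inward, does so too. These are 13 of the 27 members, and 6 of them were not tested. Among the 14 members with whole counts, 4 were lower and 1 higher. Among the 7 tested members with fractional counts 1 was lower, SPBCPT2R1.04c. Over all features tested, 10.2% were lower and 8.36% higher, and no difference between whole-count and fractional members was tested. Whether fractional counts hold reads from other chromosome ends was not tested.

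SPBCPT2R1.04c and SPBCPT2R1.01c belong to the DUF999 family of proteins specific to S. pombe, whose function is not known and whose genes lie at the chromosome ends. SPBCPT2R1.04c gave 8.80, 9.02 and 8.02 CPM in the wild-type and 5.88, 6.01 and 6.86 CPM in the cpn1∆ libraries. The groups did not overlap, and the level fell by 27.2% (log2FC -0.46 ± 0.11 SE, edgeR quasi-likelihood adjusted p = 0.0101). The call held without any 1 library (largest adjusted p = 0.0432). Its counts of 233.16, 282.79 and 255.61 in wild-type and 169.13, 188.14 and 223.86 in cpn1∆ cells ran closely beside those of SPAC750.06c at the right end of chromosome I, which gave 217.74, 264.57 and 257.78 in wild-type and 159.86, 184.61 and 228.25 in cpn1∆ cells. SPAC750.06c had a log2FC of -0.42 ± 0.11 (SE), and its call was lost without wild-type replicate 2, cpn1∆ replicate 1 or cpn1∆ replicate 2 (adjusted p = 0.0623, 0.0777 and 0.0697 by edgeR quasi-likelihood). Whether both draw on the same reads was not tested.

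SPBCPT2R1.01c was not called. It gave 7.02, 7.92 and 6.74 CPM in the wild-type and 6.90, 6.98 and 7.18 CPM in the cpn1∆ libraries, with a log2FC of -0.04 ± 0.11 (SE, edgeR quasi-likelihood adjusted p = 0.827). Its counts, 185.92, 248.43 and 214.92 in wild-type cells, matched closely those of SPBC1348.01, at the left end of chromosome II (186.64, 249.76 and 223.61), and of SPAC212.01c, on the left of chromosome I (187.93, 246.37 and 221.50). Of the 9 tested genes of the family, 2 were lower and 0 higher, against 10.2% and 8.36% of all features tested. The 2 were SPBCPT2R1.04c and SPAC750.06c, whose counts ran closely together, so they may not be separate signals. SPBPB2B2.14c, another DUF999 gene, was at 0.518 ± 0.0446 CPM in wild-type cells against 0.525 ± 0.0992 in the deletion strain (SD, n = 3).

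**Figure D4:**
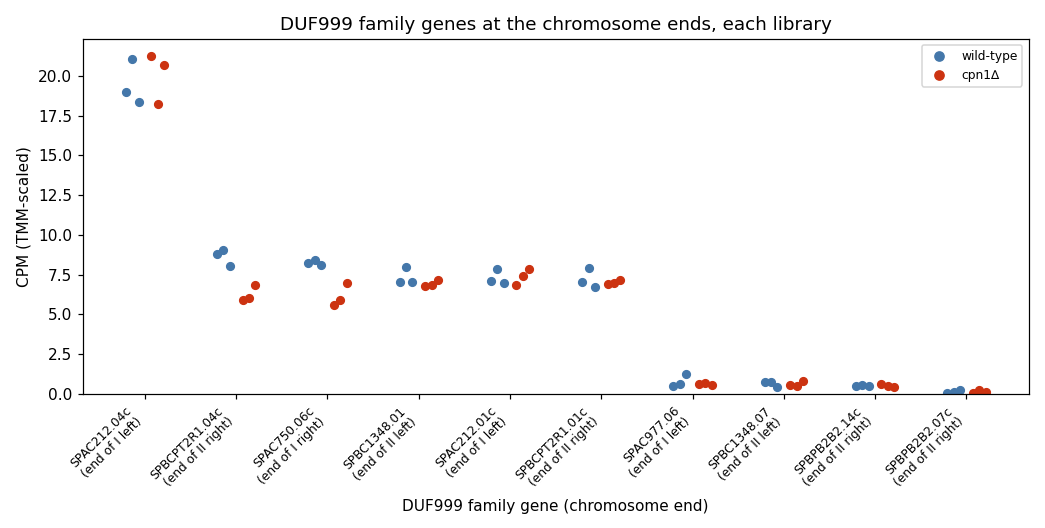
CPM (TMM-scaled) of the 10 DUF999 family genes in each wild-type (blue) and cpn1∆ (red) library, with the chromosome end of each gene below its name. SPBCPT2R1.04c and SPAC750.06c have nearly the same values and are lower in cpn1∆ cells, and SPBCPT2R1.01c, SPBC1348.01 and SPAC212.01c lie together between 6.74 and 7.97 CPM in both genotypes.

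The remaining members were low and not called. The transporter gene SPBPB2B2.16c, of the major facilitator superfamily, was at 1.12 ± 0.0334 CPM in wild-type cells against 0.918 ± 0.0452 in the deletion strain and SPBPB2B2.18, for a conserved fungal protein, at 1.51 ± 0.0045 and 1.11 ± 0.237 CPM (SD, n = 3). In both, the cpn1∆ libraries were all below the wild-type libraries, but the test was not passed at 26.58 to 35.92 and 27.05 to 48.42 counts per library (adjusted p = 0.433 and 0.216 by edgeR quasi-likelihood). In all, libraries did not overlap for 8 tested members with lower and 2 with higher cpn1∆ levels, and for 18.2% and 17.4% of all features tested. SPBCPT2R1.07c, a malic enzyme pseudogene, had a log2FC of -0.58 ± 0.34 (SE) and SPBCPT2R1.02, for an S. pombe specific protein, of 0.27 ± 0.29 (SE). The 6 members not tested were SPBPB2B2.07c, SPBPB2B2.15, ftm7, SPBCPT2R1.03, SPBCPT2R1.05c and SPBCPT2R1.10, with 0.5 to 9 counts per library, at which no difference was detectable.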

How the data were processed

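Polyadenylated RNA from 3 wild-type and 3 cpn1∆ cultures was sequenced. The authors removed adapters with Cutadapt 4.8, aligned reads with STAR 2.7.10b to ASM294v2 and counted them per feature with featureCounts, and they deposited expected counts that are not normalized, 1 column per library, with fractions in 760 features. Not given in the sources used here are the strand setting of the counting and how reads that match more than 1 feature were handled. A row called other that stands for no gene (0.608% to 0.647% of the counts) was left out, and fractional counts were rounded for the tests, although the design had assumed whole counts. Names, order, overlaps and distances come from ASM294v3, a later build than that of the counting, so no coordinates are given, and 1 member was matched through a synonym. Feature lengths come from the same annotation.

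All features were fitted together with edgeR 4.0.16 in R 4.3.3 (TMM, filterByExpr with a minimum count of 10, glmQLFit with legacy set to FALSE, glmQLFTest), without a term for the replicate number. P-values were adjusted by Benjamini-Hochberg over every tested feature, and SE is |log2FC| over the square root of F. Replicates of a genotype differed by more than the sampling noise (chi-square per gene 4.68 to 11). The fit was tested on simulated data. The members, lists and tests were chosen with earlier results of these data known. Every member may be named, those past the FDR threshold with all values, together with genes of the lists, non-coding RNAs between the members and features at the inner edge. The genes of the galactose list were named by identifier. Other gene family lists were taken from the product descriptions of the annotation, for DUF999 from its notes. Promoter motifs were not searched, since no promoter sequences of the counted build were used here. Alternatives were other scalings, filters and tests (with DESeq2 1.42.0 and limma 3.58.1), unrounded counts, only whole-count features or protein-coding genes, the replicate number as a block, and each library left out. Summaries were made in Python 3.11.15 (pandas 2.3.3).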

Additional observations from a re-analysis of the deposited data

How the results depend on the processing

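The number of lower members, 5, was 3 to 5 with 1 library left out, with 3 without wild-type replicate 2 or cpn1∆ replicate 2, and stayed within 1.5 times under all other alternatives. The number of higher members, 1, became 2, with SPBPB2B2.05 as the added one, under upper quartile scaling, total counts only, at least 1 CPM in 3 libraries, edgeR's legacy fit, protein-coding genes only and the replicate number as a block. It was 1 to 2 with 1 library left out, with 2 without cpn1∆ replicate 3. The number lower by more than 2-fold, 0, was 0 to 1 with 1 library left out, SPBPB2B2.08 being called so without wild-type replicate 1 or cpn1∆ replicate 3. The median log2FC of tested members, -0.13, was -0.085 without a low-count filter, over all 27 members, and -0.176 to -0.067 with 1 library left out. Same-numbered libraries did not deviate together (r = -0.05, 0.05 and 0.09), and the replicate block otherwise changed no call of a member. Uncalled values near 0 changed sign: fub2 to 0.0039 and SPBPB2B2.14c to 0.0093 with total counts only, and SPBPB2B2.14c to 0.0038 unrounded. With 1 library left out, fub2 ranged from -0.13 to 0.045, SPBPB2B2.14c from -0.16 to 0.066, say1 from -0.19 to 0.013, SPBCPT2R1.01c from -0.10 to 0.031 and SPAC212.01c from -0.040 to 0.068. Members under 1 CPM rest on few counts, which limits what could be detected.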
